A study of Homo sapiens with 12 samples.

Results

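YAP, TAZ and their target genes were examined as 9 genes, YAP1, WWTR1 (which encodes TAZ), TEAD1, LATS2, CTGF, CYR61, ANKRD1, AMOTL2 and AXL. The genes were chosen by symbol, with earlier results of these data known. All 9 were found among the 23710 symbols counted and passed the filter on low counts. RCC4 cells, an established line of clear cell renal carcinoma that lacks VHL, were collected 72 h after transfection with 40 pmol of siRNA. In experiment 1 siMESH1-CDS, which targets the coding sequence of MESH1 (HDDC3), was compared with a non-targeting siRNA (siNT). In experiment 2 siMESH1-7002, which targets the 3'UTR, was compared with a separate set of siNT libraries. Each of the 4 groups had 3 libraries. The labels call the libraries of a group biological replicates, and p-values measure the spread between them. Reads in genes ran from 34063155 to 49134129 per library in experiment 1 and from 24787804 to 31651125 in experiment 2. The labelled cell type was checked with 7 genes of kidney and clear cell carcinoma, of which 7 reached 1 CPM in each siNT group and with siMESH1-7002 and 6 with siMESH1-CDS, while among 9 markers of other cell types the leukocyte genes PTPRC and CD3E and the endothelial genes PECAM1 and CDH5 had 3 reads or fewer in every group. The endothelial gene VWF was above 3 reads with siNT of experiment 2, and CD68 (54.7 and 105 CPM), COL1A1 (20.8 and 12 CPM) and EPCAM (10.8 and 28.2 CPM) were measured with siNT of experiments 1 and 2. In bulk RNA, fewer cells of a type and less RNA per cell cannot be told apart.

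YAP and TAZ are transcriptional coactivators that bind DNA through TEAD factors. In the Hippo pathway the kinases MST1/2 activate LATS1/2, which phosphorylate YAP and TAZ and so keep them out of the nucleus. In epithelial and cancer cells the pathway responds to cell density, adhesion and tension. CTGF, CYR61 and ANKRD1 are the classical readouts of YAP and TAZ, while LATS2 and AMOTL2 are targets that restrain the coactivators. The counts measure mRNA and give no information on phosphorylation or location of the proteins.

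WWTR1 mRNA fell with each siRNA. YAP1 mRNA rose 3.48-fold with siMESH1-CDS. With siMESH1-7002 its rise was 1.12-fold, a call lost in some alternative fits. The targets did not move together. CTGF rose with siMESH1-CDS but was not called with siMESH1-7002, CYR61 and AXL were lower with each siRNA before a correction for GC content, and ANKRD1 rose with siMESH1-CDS and fell with siMESH1-7002. With siMESH1-CDS, 4 of the 9 genes were called higher and 4 lower, beside 36.9% and 37.2% of all 13395 genes tested (74.1% called in either direction). With siMESH1-7002, 2 were called higher and 5 lower, beside 26.6% and 26.7% of 13568 genes (53.3% in either direction). The shares of the 9 genes called are thus read against a background in which most genes were called. Since the 9 genes and the lists below were chosen with earlier results of these data known, their shares are descriptions and not tests. The median log2 fold change of the 9 genes was -0.19 with siMESH1-CDS and -0.15 with siMESH1-7002, beside -0.05 and 0.01 over all genes tested.

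The sequences that the siRNAs target are shown first, since each knockdown rests on them. Both lie in HDDC3 on the minus strand of chromosome 15 (GRCh38, GENCODE 29). The siMESH1-CDS site is in the coding part of exon 2 at chr15:90932064-90932082 and the siMESH1-7002 site in the 3'UTR in exon 4 at chr15:90931109-90931129. Capitals mark the bases that pair with guide positions 2 to 8, the seed, where the guide is taken as the perfect complement of the target.
siMESH1-CDS target: gggaatcactgACATTGTg
siMESH1-7002 target: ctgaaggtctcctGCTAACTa
HDDC3 itself was at 8.23, 6.46 and 7.75 CPM in the siNT libraries of experiment 1 and at 0.158, 0 and 0.316 CPM with siMESH1-CDS. In experiment 2 it was at 13.9, 13.1 and 12.7 CPM with siNT and at 1.25, 1.18 and 1.72 CPM with siMESH1-7002. The target was lower in every siMESH1 library than in any siNT library, to 2.11% of siNT with siMESH1-CDS (edgeR, adjusted p = 0.00174) and 10.5% with siMESH1-7002 (adjusted p = 2.51e-12). The HDDC3 transcript has 56.2% GC. After a correction for GC content its log2 change was -3.74 with siMESH1-CDS and -3.18 with siMESH1-7002. The difference between the siRNAs was then not called (-0.67, edgeR adjusted p = 0.229).

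The promoters were searched for GGAATG, the core letters that TEAD factors bind, on both strands in the RefSeq windows from 250 bases before to 50 bases after each start (GRCh38.p14). Of 35116 such windows, 14% held the letters at least once, 1.37% at least 2 times and 0.128% at least 3 times. The CTGF (CCN2) window held 3 and the ANKRD1 window 2, all before the start and on the strand of the gene, and these are shown because both genes are standard readouts of the coactivators, together with the match of YAP1 itself. Capitals mark the motif.
CTGF, chr6:131951524-131951553, minus strand: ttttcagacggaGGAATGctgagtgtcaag
CTGF, chr6:131951454-131951483, minus strand: gtggggaGGAATGcgaGGAATGtccctgtt
ANKRD1, chr10:90921290-90921319, minus strand: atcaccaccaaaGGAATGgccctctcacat
ANKRD1, chr10:90921198-90921227, minus strand: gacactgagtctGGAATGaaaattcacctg
YAP1, chr11:102110273-102110302, plus strand: cgggagtgtgcaGGAATGtagcaacttgca
The motifs of CTGF began 169, 104 and 95 bases before the start, those of ANKRD1 220 and 128 bases before it, and that of YAP1 162 bases before it. LATS2 held 1 match after its start, AMOTL2 and AXL 1 match each in 1 of 2 windows, and WWTR1 none in 2 windows. TEAD1 and CYR61 (CCN1) had no window in the table. A match is a description of letters in this window, and no binding was measured.

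**Figure D1:**
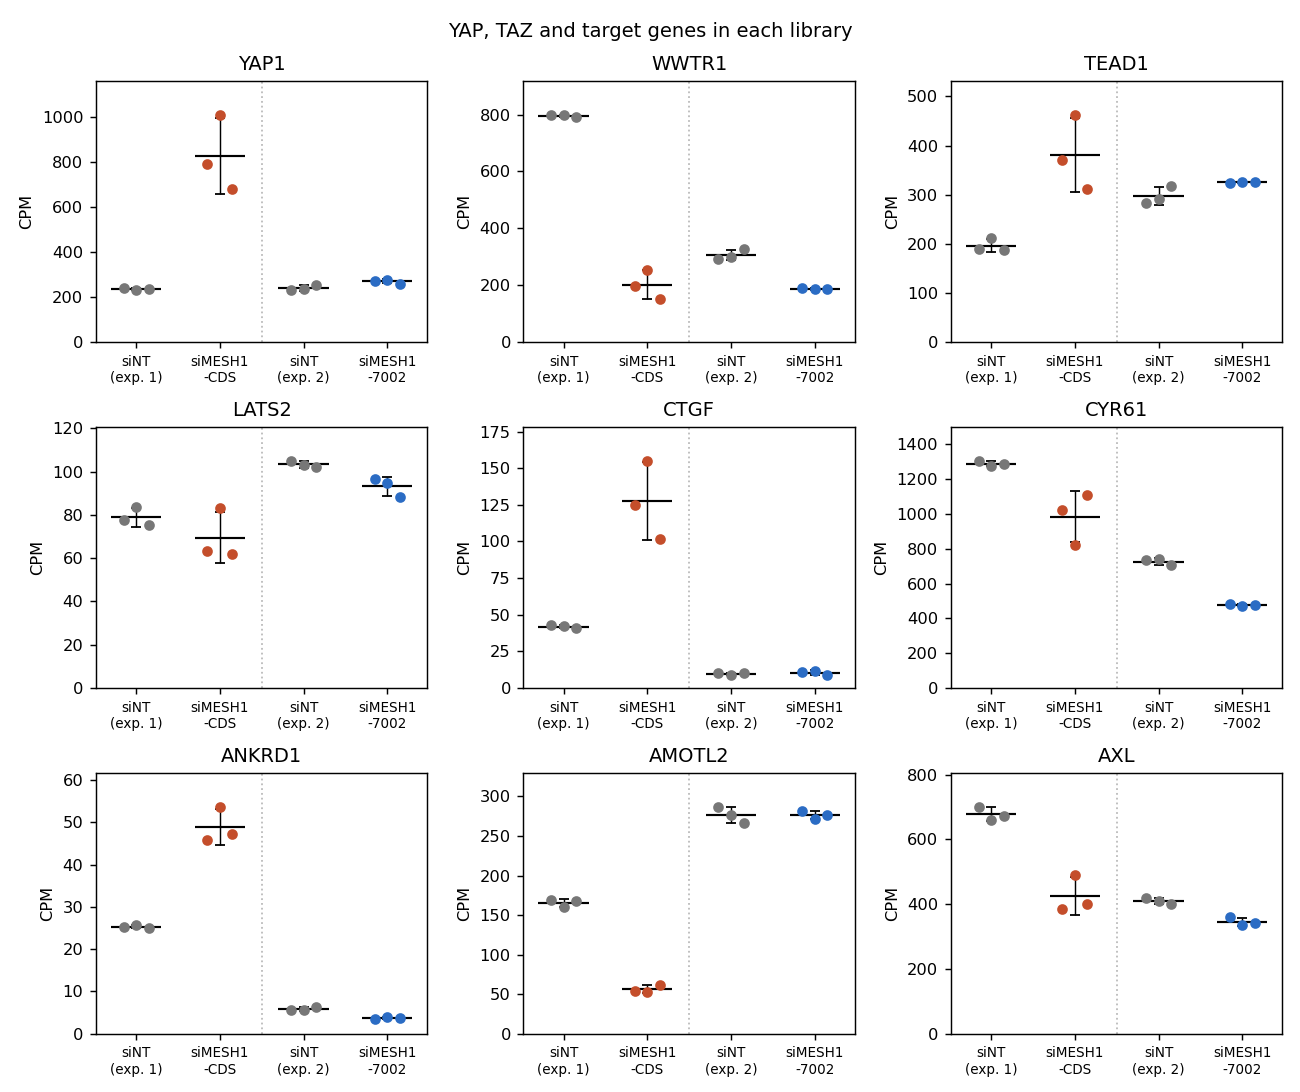
TMM-normalized CPM of each of the 9 genes (vertical axis, from 0) in each library (points) by group, with group means (lines) and SD (bars, n = 3), experiment 1 left and experiment 2 right of the dotted line. YAP1 was at 678 to 1007 CPM with siMESH1-CDS against 233 to 242 with its siNT, and WWTR1 at 153 to 255 against 791 to 798.

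YAP1 encodes the coactivator YAP. It was at 242, 233 and 235 CPM in the siNT libraries of experiment 1 and at 790, 1007 and 678 CPM with siMESH1-CDS. Experiment 2 gave 232, 236 and 254 CPM with siNT and 273, 277 and 259 CPM with siMESH1-7002. The groups overlapped in neither experiment, but the step was large with siMESH1-CDS and small with siMESH1-7002. The change was 3.48-fold with siMESH1-CDS (log2 1.80, SE 0.159, edgeR adjusted p = 0.000399) and 1.12-fold with siMESH1-7002 (log2 0.16, SE 0.047, adjusted p = 0.00753). With siMESH1-7002 the call was lost without siMESH1-7002 replicate 2 (log2 0.14, edgeR adjusted p = 0.0528). It was also lost in 1 model of all 4 groups (log2 0.16, edgeR adjusted p = 0.464). In 1 model of all 12 libraries the change with siMESH1-CDS was larger by 1.49 on the log2 scale (SE 0.169, edgeR adjusted p = 3.86e-05). That model scales all libraries together, so its differences are not the subtraction of the changes printed for each experiment. Its median difference over all genes was -0.24.

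WWTR1 encodes TAZ, the paralogue of YAP. It was at 797, 798 and 791 CPM in the siNT libraries of experiment 1 and at 197, 255 and 153 CPM with siMESH1-CDS. The libraries of experiment 2 had 293, 300 and 328 CPM with siNT and 190, 186 and 185 CPM with siMESH1-7002. Every siMESH1 library was below every siNT library of its experiment. WWTR1 fell to 25.4% of siNT with siMESH1-CDS (log2 -1.98, SE 0.195, edgeR adjusted p = 0.000522) and to 60.9% with siMESH1-7002 (log2 -0.72, SE 0.0476, adjusted p = 1.94e-09). Each call held without any single library, with log2 fold changes from -2.17 to -1.83 and from -0.75 to -0.67. The difference between the siRNAs in the model of all libraries was -1.41 on the log2 scale (SE 0.205, edgeR adjusted p = 0.00018). The antisense transcript WWTR1-AS1 had 2 to 21 reads in a library, and whether the counting used strand is not stated.

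WWTR1 and YAP1 counts were also set against each other within each library, a measure chosen after their values were seen. It depends on gene length and is therefore compared between groups and not read as a ratio of molecules. With siNT of experiment 1 there were 3.30, 3.42 and 3.36 WWTR1 reads per YAP1 read, and with siMESH1-CDS 0.250, 0.254 and 0.225. In experiment 2 there were 1.26, 1.27 and 1.29 with siNT and 0.695, 0.672 and 0.716 with siMESH1-7002. The ratio was lower in every siMESH1 library than in any siNT library of its experiment, with a log2 change of -3.79 with siMESH1-CDS and -0.88 with siMESH1-7002. This order already followed from the levels above, since YAP1 was higher and WWTR1 lower in every siMESH1 library. The exact permutation p of 0.1, the smallest that 3 against 3 allows, was therefore fixed beforehand and adds no support. WWTR1 reads thus outnumbered YAP1 reads in all siNT libraries, and the reverse held in all siMESH1 libraries.

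**Figure D2:**
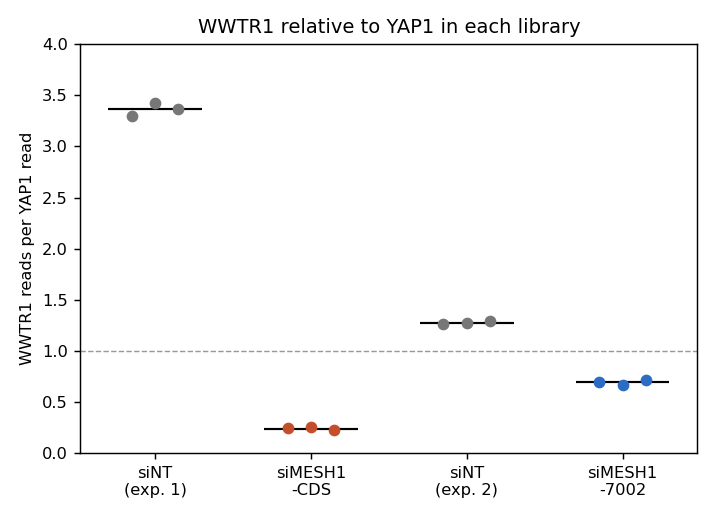
WWTR1 reads per YAP1 read (vertical axis, from 0) in each library (points) by group, with group means (solid lines) and the value of 1 (dashed line). The siNT libraries sit above 1 (3.30 to 3.42 and 1.26 to 1.29) and the siMESH1 libraries below it (0.225 to 0.254 and 0.672 to 0.716).

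TEAD1, a DNA-binding partner of YAP and TAZ, was at 189, 211 and 188 CPM with siNT and at 370, 462 and 312 CPM with siMESH1-CDS. The second experiment gave 283, 292 and 318 CPM with siNT and 324, 326 and 325 CPM with siMESH1-7002. The groups overlapped in neither experiment, although the highest siNT library (318 CPM) and the lowest siMESH1-7002 library (324 CPM) lay close together. TEAD1 rose 1.94-fold with siMESH1-CDS (log2 0.96, SE 0.158, edgeR adjusted p = 0.00255). With siMESH1-7002 the change was 1.09-fold (log2 0.13, SE 0.0465, adjusted p = 0.0313), and leaving out siNT replicate 1 or 2 or any of the siMESH1-7002 libraries ended that call (edgeR adjusted p = 0.08 to 0.133).

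LATS2, the kinase that phosphorylates YAP and TAZ and is itself one of their targets, was at 77.8, 83.9 and 75.3 CPM with siNT and at 63.1, 83.0 and 62.0 CPM with siMESH1-CDS. In experiment 2 it was at 105, 103 and 102 CPM with siNT and at 96.4, 94.8 and 88.4 CPM with siMESH1-7002. The groups overlapped in experiment 1, where siMESH1-CDS replicate 2 lay within the siNT range, and did not overlap in experiment 2. LATS2 was not called with siMESH1-CDS (log2 -0.19, SE 0.142, edgeR adjusted p = 0.268), although it was called lower without that replicate (log2 -0.32, adjusted p = 0.0156). With siMESH1-7002 it fell to 90.4% of siNT (log2 -0.15, SE 0.0498, edgeR adjusted p = 0.0205), a call lost without siNT replicate 2 or without siMESH1-7002 replicate 2 or 3 (edgeR adjusted p = 0.052 to 0.135).

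CTGF encodes a secreted matricellular protein. It was at 42.8, 42.3 and 40.6 CPM with siNT and at 125, 155 and 102 CPM with siMESH1-CDS. Its level in experiment 2 was 9.90, 9 and 9.97 CPM with siNT and 10.9, 11.6 and 8.52 CPM with siMESH1-7002. The groups were far apart in experiment 1 and overlapped in experiment 2. CTGF rose 3.04-fold with siMESH1-CDS (log2 1.60, SE 0.168, edgeR adjusted p = 0.000598) and was not called with siMESH1-7002 (log2 0.10, SE 0.107, adjusted p = 0.449). The changes differed by 1.35 on the log2 scale in the model of all libraries (SE 0.218, edgeR adjusted p = 0.000359).

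CYR61, the matricellular relative of CTGF, was at 1305, 1277 and 1285 CPM with siNT and at 1020, 824 and 1110 CPM with siMESH1-CDS. With siNT of experiment 2 it was at 733, 740 and 704 CPM, and with siMESH1-7002 at 481, 473 and 476 CPM. The siMESH1 libraries lay below the siNT libraries in each experiment. With siMESH1-7002, CYR61 fell to 65.7% of siNT (log2 -0.61, SE 0.0398, edgeR adjusted p = 1.62e-09). With siMESH1-CDS it was at 76.4% of siNT (log2 -0.39, SE 0.129, edgeR adjusted p = 0.0334), but this call was lost without any of the siNT libraries or without siMESH1-CDS replicate 1 (adjusted p = 0.082 to 0.0951), with a term for sequencing lane (adjusted p = 0.147) and with a correction for GC content, where the sign turned (log2 0.09, adjusted p = 0.166). CTGF and CYR61 thus moved in opposite directions with siMESH1-CDS on the TMM scale but not after the GC correction.

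ANKRD1, a nuclear ankyrin-repeat protein of muscle and stretched cells, was at 25.2, 25.7 and 25.1 CPM with siNT and at 45.9, 53.7 and 47.2 CPM with siMESH1-CDS. The siNT libraries of experiment 2 had 5.61, 5.63 and 6.42 CPM and the siMESH1-7002 libraries 3.54, 3.95 and 3.63 CPM. It was the member called in opposite directions, with no overlap in either experiment. ANKRD1 rose 1.93-fold with siMESH1-CDS (log2 0.95, SE 0.113, edgeR adjusted p = 0.000866) and fell to 63.0% of siNT with siMESH1-7002 (log2 -0.67, SE 0.114, adjusted p = 0.000114). The difference between the siRNAs in the model of all libraries was 1.46 on the log2 scale (SE 0.136, edgeR adjusted p = 1.1e-05).

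AMOTL2, an angiomotin family protein that binds YAP at cell junctions, was at 169, 160 and 168 CPM with siNT and at 54.2, 53.0 and 62.0 CPM with siMESH1-CDS. Experiment 2 gave 287, 277 and 266 CPM with siNT and 282, 271 and 277 CPM with siMESH1-7002. The groups were apart in experiment 1 and overlapped in experiment 2. AMOTL2 fell to 34.0% of siNT with siMESH1-CDS (log2 -1.56, SE 0.0967, edgeR adjusted p = 0.00023), a change that turned to 0.70 after the GC correction (adjusted p = 0.0961), and was not called with siMESH1-7002 (log2 0.00, SE 0.0435, adjusted p = 0.99).

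AXL, a receptor tyrosine kinase for GAS6, was at 701, 659 and 672 CPM with siNT and at 384, 491 and 401 CPM with siMESH1-CDS. In experiment 2 it was at 419, 411 and 401 CPM with siNT and at 360, 336 and 341 CPM with siMESH1-7002. The groups overlapped in neither experiment. AXL fell to 84.3% of siNT with siMESH1-7002 (log2 -0.25, SE 0.0423, edgeR adjusted p = 0.000112). With siMESH1-CDS it was at 62.8% of siNT (log2 -0.67, SE 0.117, edgeR adjusted p = 0.00318), and the sign turned after the GC correction (log2 0.80, adjusted p = 0.0672).

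In all, the groups did not overlap for 8 of the 9 genes with siMESH1-CDS, beside 82.7% of all genes tested, and for 7 with siMESH1-7002, beside 59.5%. YAP1 and TEAD1 were called higher with each siRNA (22.2% of the 9 genes, beside 15.5% of 12824 genes tested in both experiments). WWTR1, CYR61 and AXL were called lower with each (33.3%, beside 15.1%), of which CYR61 and AXL turned sign with siMESH1-CDS after the GC correction. With siMESH1-7002 the calls of YAP1, TEAD1 and AXL were lost in 1 model of all 4 groups (edgeR adjusted p = 0.464, 0.624 and 0.0748). Those of YAP1 and TEAD1 were also lost without some single libraries, and that of TEAD1 after the GC correction (edgeR adjusted p = 0.0707). ANKRD1 was called in opposite directions (11.1%, beside 11.6%). The exact permutation test of log2 CPM gave p = 0.1 for each gene whose groups did not overlap. The changes with the siRNAs were tested against each other in 1 model of all libraries, where 7 of the 9 genes were called, 4 higher with siMESH1-CDS (YAP1, TEAD1, CTGF and ANKRD1) and 3 lower (WWTR1, AMOTL2 and AXL), beside 69.7% of 14154 genes (30% higher and 39.7% lower). LATS2 (log2 difference -0.19, SE 0.15, edgeR adjusted p = 0.272) and CYR61 (0.07, SE 0.14, adjusted p = 0.684) were not called.

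**Figure D3:**
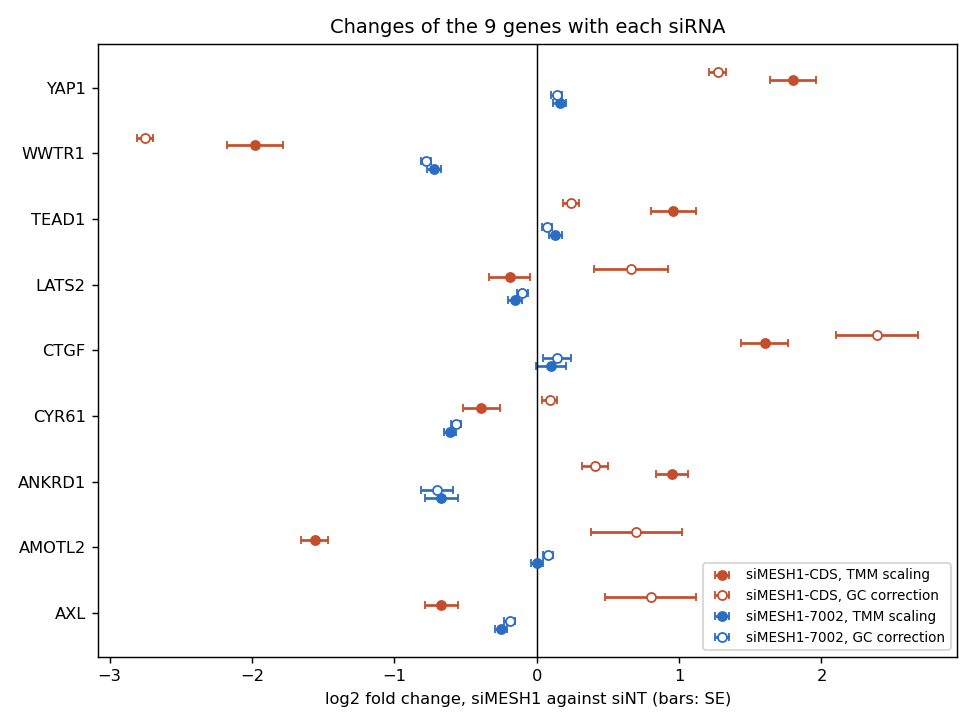
Log2 fold change of siMESH1 against siNT (horizontal axis, bars are SE) for the 9 genes, with siMESH1-CDS in red and siMESH1-7002 in blue, on the TMM scale (filled) and after the GC correction (open). The red points of LATS2, CYR61, AMOTL2 and AXL change side after the correction (to 0.66, 0.09, 0.70 and 0.80), and those of YAP1, WWTR1, TEAD1, CTGF and ANKRD1 do not.

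Changes in experiment 1 moved with the GC content of the transcript over all genes. Genes were split into 10 classes of increasing GC content. With siMESH1-CDS the class medians of the log2 fold change ranged between 1.10 at the GC-poor end and -3.56 at the GC-rich end, and with siMESH1-7002 between 0.13 and -0.10. The siMESH1-CDS libraries also differed more among themselves, with a chi-square per degree of freedom of 65.2 to 275 between libraries of the group against 2.24 to 15.2 in the other groups. Among the 9 genes, the transcripts of WWTR1 (40.9% GC), TEAD1 (41.3%), ANKRD1 (43.3%) and YAP1 (43.5%) had the least GC and those of AXL (53.9%) and AMOTL2 (56.7%) the most, with CYR61 (50.3%), CTGF (51.5%) and LATS2 (51.8%) between them.

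After the GC correction, 5 of the 9 genes were called with siMESH1-CDS, beside 66.1% of all genes, and 6 with siMESH1-7002, beside 59.7%. WWTR1 lay below genes of its GC content and fell further after the correction (log2 -2.75, SE 0.0556, edgeR adjusted p = 5.7e-06), and CTGF lay above genes of its GC content and rose further (log2 2.39, SE 0.291, adjusted p = 0.000714). YAP1 kept a smaller rise (log2 1.27, SE 0.0605, edgeR adjusted p = 3.01e-05), as did ANKRD1 (log2 0.41, SE 0.0931, adjusted p = 0.00855) and TEAD1 (log2 0.24, SE 0.0562, adjusted p = 0.0106). The difference between the siRNAs was no longer called for TEAD1 (log2 -0.11, edgeR adjusted p = 0.248), AMOTL2 (0.47, adjusted p = 0.236) or AXL (0.81, adjusted p = 0.0572), and it was called for CYR61 (0.46, adjusted p = 0.000326). With siMESH1-7002 the correction turned the sign of no called member and ended the call of TEAD1 (log2 0.07, edgeR adjusted p = 0.0707).

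**Figure D4:**
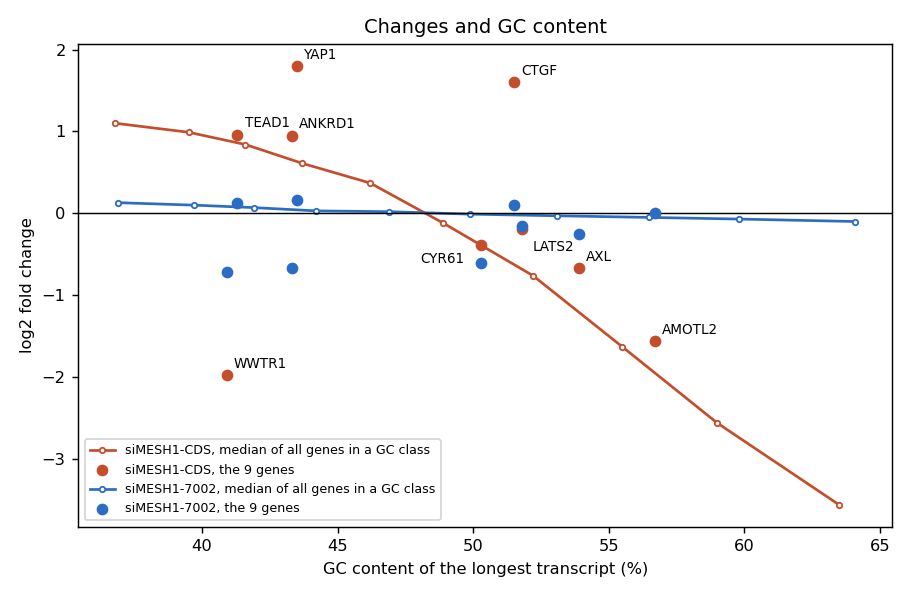
Log2 fold change (vertical axis) against GC content of the longest transcript in percent (horizontal axis) for the 9 genes (filled points, named for siMESH1-CDS) and as the median of all genes in each of 10 GC classes (open points joined by lines), with siMESH1-CDS in red and siMESH1-7002 in blue. The red line runs from 1.10 to -3.56 and the blue line from 0.13 to -0.10, with WWTR1 below and CTGF and YAP1 above the red line.

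Sequencing lane was shared by 1 siNT and 1 siMESH1-CDS library in each of 2 lanes of experiment 1. Within these lanes the log2 ratios of YAP1 were 1.49 and 1.75, those of WWTR1 -2.38 and -2.01, those of CTGF 1.25 and 1.62, and those of ANKRD1 0.90 and 0.87. The remaining members also had the direction of the pooled change in each lane, CYR61 with -0.23 and -0.33. All libraries of experiment 2 came from 1 lane.

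The siNT levels differed between the experiments, which were normalized separately and cannot be told apart from the experiment itself. YAP1 had similar siNT levels in each (237 ± 4.58 and 241 ± 11.6 CPM, SD, n = 3). The mean siNT level in experiment 1 was 4.35 times that in experiment 2 for CTGF, 4.31 times for ANKRD1, 2.59 times for WWTR1, 1.78 times for CYR61 and 1.65 times for AXL. It was 0.766 times for LATS2, 0.659 times for TEAD1 and 0.599 times for AMOTL2.

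Short matches to the siRNA seeds were counted in the 3'UTRs of the members, where partial pairing of a guide can lower an mRNA. The siMESH1-CDS seed match ACATTGT was found in 14.1% of 19053 genes with a 3'UTR, and the siMESH1-7002 match GCTAACT in 5.54%. WWTR1 held 2 siMESH1-CDS matches, TEAD1, CTGF and CYR61 1 each, and the other members none, while no member held a siMESH1-7002 match. The WWTR1 sites lie on the minus strand of chromosome 3 (GRCh38, GENCODE 29) and are shown, in capitals within their surroundings, because WWTR1 had the lowest log2 fold change of the members with each siRNA.
WWTR1, chr3:149517801-149517827: ctgataaaatACATTGTcttgaagtaa
WWTR1, chr3:149517782-149517808: tgaagtaaatACATTGTcaaaacctaa
Among the members with a siMESH1-CDS match, WWTR1 and CYR61 were called lower with siMESH1-CDS (CYR61 not after the GC correction), and TEAD1 and CTGF were called higher. WWTR1 and CYR61 were also called lower with siMESH1-7002, for which neither held a match. The part of these matches in the changes was not tested.

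Genes with the pattern closest to that of a member were found by the root mean square difference in centred log2 CPM over all 12 libraries, among 11549 genes. For YAP1 these were RRAS2 (0.0344), CALD1 (0.0489) and RNF103 (0.0498), and for WWTR1 EPT1 (0.121), MMS22L (0.14) and RASSF3 (0.142). For CTGF they were PAIP1 (0.104), FBXO28 (0.105) and C9orf41 (0.105), and for CYR61 PRAME (0.0676), MOCOS (0.0799) and SLC39A14 (0.083). None of the 12 genes was a member or belonged to the lists of Hippo components or targets.

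Hippo components upstream of YAP and TAZ were counted in a list of 17 kinases and adaptors. With siMESH1-CDS 12 were called higher and 4 lower (median log2 fold change 0.87), beside 36.9% and 37.2% of all genes, and after the GC correction 12 higher and 1 lower, beside 38.8% and 27.3%. With siMESH1-7002 5 were called higher and 6 lower (median -0.06), beside 26.6% and 26.7%, with the same counts after the correction, beside 31.4% and 28.3%. The difference between the siRNAs was not tested for the list as a whole. MOB1B, a coactivator of the LATS kinases, rose from 49.8 ± 1.47 to 150 ± 40.0 CPM (SD, n = 3) with siMESH1-CDS (log2 1.59, edgeR adjusted p = 0.000994) and from 39.4 ± 7.27 to 56.6 ± 1.59 CPM with siMESH1-7002 (log2 0.52, adjusted p = 0.000123), and its rise with siMESH1-CDS was 0.60 after the GC correction. The kinase MAP4K4, which can act on LATS, rose by log2 0.56 and 0.37 (edgeR adjusted p = 0.00205 and 8.52e-07). LATS1 rose by log2 0.87 and 0.34 (edgeR adjusted p = 0.00251 and 0.000214), and its change with siMESH1-CDS was 0.07 after the GC correction (adjusted p = 0.538). The adaptor WWC1 (KIBRA) fell with siMESH1-7002 (log2 -0.77, edgeR adjusted p = 9.76e-11), while its change with siMESH1-CDS of -0.40 (adjusted p = 0.00741) turned to 1.14 after the GC correction.

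Of the 17 genes 4 were called in opposite directions, TAOK1, MOB1A, STK3 and WWC2, the last of which lies outside the naming rule. TAOK1, a kinase upstream of MST1/2, rose by log2 1.53 with siMESH1-CDS and was at -0.63 with siMESH1-7002 (edgeR adjusted p = 0.000895 and 1.78e-06), with 0.69 for siMESH1-CDS after the GC correction. MOB1A, the close relative of MOB1B, was at 1.60 and -0.30 (edgeR adjusted p = 0.00105 and 0.000229), also with 0.69 for siMESH1-CDS after the correction, so that the MOB1 genes had the same sign with siMESH1-CDS and opposite signs with siMESH1-7002. STK3, which encodes MST2, was at 0.88 and -0.27 (edgeR adjusted p = 0.00542 and 0.00551), and its siMESH1-CDS value was -0.02 after the GC correction. WWC2, a relative of WWC1, was at 1.85 and -0.20 (edgeR adjusted p = 0.000228 and 0.00242).

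Of 7 TEAD and VGLL genes 4 were tested, too few to set against the share of all genes called (74.1% and 53.3%). With siMESH1-CDS 1 was called higher and 1 lower, and after the GC correction 2 higher and none lower. The 2 calls before the correction became 1 without any of the siNT libraries or without siMESH1-CDS replicate 1, and 4 without siMESH1-CDS replicate 3. TEAD3 was the gene called lower (log2 -3.03, edgeR adjusted p = 0.0286). TEAD4 (log2 -2.69) and TEAD2 (-1.19) were also below siNT but not called. After the GC correction TEAD3 was at -0.53, TEAD4 at -0.23 and TEAD2 at 1.11, of which only TEAD2 was called. With siMESH1-7002 2 were called higher, TEAD2 (log2 0.55, edgeR adjusted p = 5.27e-06) and VGLL4, and none lower, and 4 were called without siNT replicate 3. VGLL4, which competes with YAP for TEAD, rose with each siRNA, from 33.9 ± 1.77 to 59.4 ± 0.491 CPM with siMESH1-CDS (log2 0.81, edgeR adjusted p = 0.000872) and from 70.8 ± 0.878 to 95.9 ± 3.38 CPM with siMESH1-7002 (log2 0.44, adjusted p = 1.38e-06). Its change with siMESH1-CDS was 1.70 after the GC correction (edgeR adjusted p = 0.000346).

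A further list held 16 commonly used targets of YAP and TAZ, of which 15 were tested in each experiment. With siMESH1-CDS 8 were called higher and 5 lower (median log2 fold change 0.30), beside 36.9% and 37.2% of all genes, and with siMESH1-7002 7 higher and 4 lower (median 0.13), beside 26.6% and 26.7%. After the GC correction these counts were 9 and 3 with siMESH1-CDS, beside 38.8% and 27.3%, and 8 and 3 with siMESH1-7002, beside 31.4% and 28.3%. Called higher with each siRNA were 5 of the 15 (33.3%), lower 1 (6.67%) and opposite 3 (20%), beside 15.5%, 15.1% and 11.6% of all genes. RBMS3, an RNA-binding protein, rose by log2 1.63 with siMESH1-CDS and 0.88 with siMESH1-7002 (edgeR adjusted p = 0.000687 and 2.95e-08), the former being 0.72 after the GC correction. GADD45A, a growth arrest and DNA damage gene, rose from 41.9 ± 1.58 to 151 ± 31.8 CPM (log2 1.85, edgeR adjusted p = 0.000432) and from 26.7 ± 0.923 to 44.7 ± 0.778 CPM (log2 0.74, adjusted p = 1.64e-08). MYOF, a membrane repair protein, rose by log2 1.12 and 0.40 (edgeR adjusted p = 0.000697 and 9.98e-07).

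The fourth gene called higher with each siRNA by the rule was CCDC80, a matrix protein, with log2 0.26 for siMESH1-7002 (edgeR adjusted p = 0.000811) and 0.30 for siMESH1-CDS (adjusted p = 0.0263), the latter turning to -0.26 after the GC correction. CRIM1, which binds BMPs at the cell surface, rose from 301 ± 7.54 to 582 ± 35.0 CPM with siMESH1-CDS (log2 0.95, edgeR adjusted p = 0.000396) and fell from 406 ± 5.71 to 182 ± 2.77 CPM with siMESH1-7002 (log2 -1.16, adjusted p = 7.18e-13). The ligand TGFB2 was at log2 1.22 and -0.89 (edgeR adjusted p = 0.00808 and 0.000573), and its rise with siMESH1-CDS was not called after the GC correction (0.36, adjusted p = 0.0871). IGFBP3, which binds insulin-like growth factors, went the other way, with log2 -1.10 with siMESH1-CDS and 0.37 with siMESH1-7002 (edgeR adjusted p = 0.000375 and 3.15e-07). CRIM1 and ANKRD1 thus shared the pattern of a rise with siMESH1-CDS and a fall with siMESH1-7002, also after the GC correction. The Hippo genes TAOK1, MOB1A and WWC2 had it as well, before and after the correction. Before it, 11.6% of all genes tested in both experiments were called in opposite directions, in either order.

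**Figure D5:**
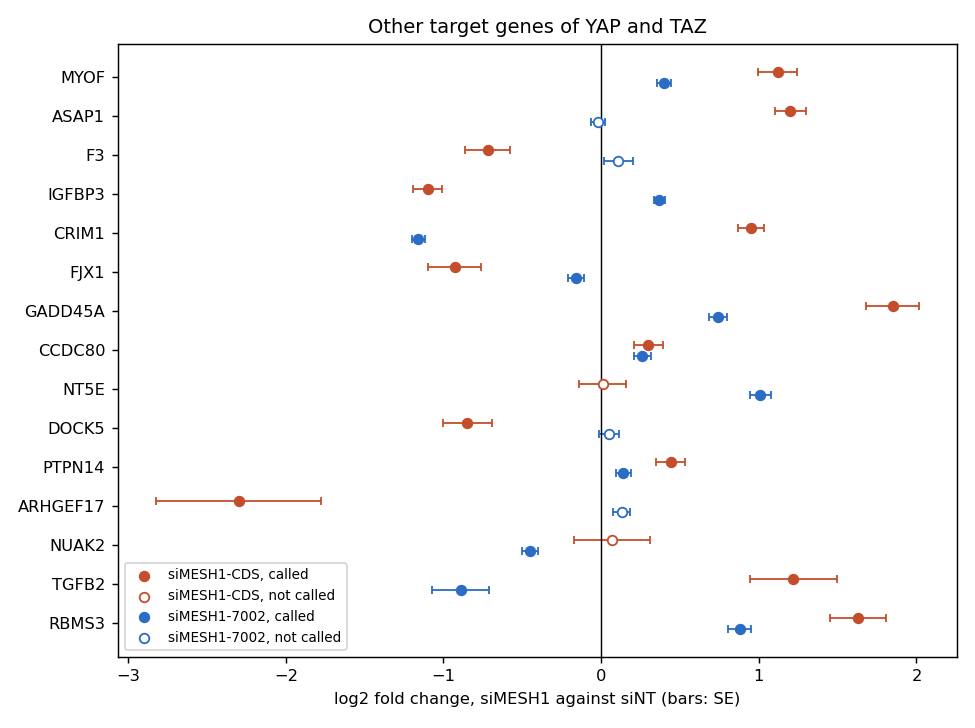
Log2 fold change of siMESH1 against siNT (horizontal axis, bars are SE, TMM scale) for the 15 tested genes of the further target list, with siMESH1-CDS in red and siMESH1-7002 in blue, filled where called and open where not. RBMS3, GADD45A and MYOF lie right of 0 with each siRNA, and CRIM1 and TGFB2 lie on opposite sides. After the GC correction the red values of CCDC80, FJX1, ARHGEF17 and NT5E change sign.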

How the data were processed

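RNA-Seq of RCC4 cells was analysed in 12 libraries, 3 for each of 4 groups taken from the labels. The deposited files hold counts of reads per gene, which the authors made with HTSeq after HISAT2 alignment, with hg19 named in the submitters' processing notes. Versions and the strand setting of the counting are not given in the sources used here. The deposited DESeq2 tables hold the authors' own comparisons and were not used.

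Rows that name no gene held 39.4% to 49.3% of all counted reads in experiment 1 and 38.9% to 42.3% in experiment 2 and were left out. Reads outside genes were 18.4% to 20.8% with siMESH1-CDS and 14.7% to 15.5% with its siNT. Low-quality alignments were 6.31% to 7.59% in experiment 1 and 0% in experiment 2. Reads without a unique alignment were 9.98% to 12.6% in experiment 1 and 23.6% to 27.1% in experiment 2. Tests used edgeR 4.0.16 (filterByExpr, TMM scaling, glmQLFit and glmQLFTest) under R 4.3.3, within each experiment for a siMESH1 group against its siNT and in 1 model of all groups for the difference between the siRNAs. Adjusted p-values are Benjamini-Hochberg values across every tested gene, and genes under 0.05 were called. CPM are TMM-normalized read counts scaled by library size within each experiment, errors are SD over 3 libraries, and SE comes from the fit. Exact permutation tests of 3 libraries against 3 are two-sided and cannot go below p = 0.1. For the GC correction, log2 CPM (prior count 1) were smoothed against the GC content of the longest transcript in each library by lowess with a span of 0.3, and the smooth entered the fit as an offset. Further alternatives were DESeq2 1.42.0, limma 3.58.1, other scalings and filters, a lane term, a replicate block, 1 model of all 4 groups, a threshold of 0.01 and leaving out each library. The steps were tested on simulated data.

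The 9 genes and the gene lists were chosen with earlier results of these data known. From each other list, genes with calls of equal sign for both siRNAs whose groups overlapped in neither experiment were named (at most 4, ranked by the smaller of both changes), and at most 3 called in opposite directions. For YAP1, WWTR1, CTGF and CYR61 the 3 genes with the smallest root mean square difference of centred log2 CPM were named. GC content, 3'UTRs and siRNA sites came from GENCODE 29 on GRCh38 and promoters from RefSeq on GRCh38.p14, matched by symbol or older symbol, so coordinates are not on the authors' build. Motif and seed searches used Python 3.11.15.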

Additional observations from a re-analysis of the deposited data

Results flagged for a closer look

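For 7 of the 9 genes the change with siMESH1-CDS differed from that with siMESH1-7002 in the test of the difference itself (edgeR, 1 model of all 12 libraries). The difference, siMESH1-CDS minus siMESH1-7002 on the log2 scale, was 1.49 for YAP1, -1.41 for WWTR1, 0.68 for TEAD1, 1.35 for CTGF, 1.46 for ANKRD1, -1.71 for AMOTL2 and -0.58 for AXL. After the GC correction the difference was 0.86 for YAP1, -2.25 for WWTR1, 2.05 for CTGF and 0.84 for ANKRD1, each still called, and it was not called for TEAD1, AMOTL2 and AXL. The siRNA, the experiment and the siNT libraries differ together between these comparisons and cannot be told apart.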

How the results depend on the processing

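With siMESH1-CDS, 121 of 135 alternative values of the 9 genes kept their direction and side of the threshold, with siMESH1-7002 107 of 126, and for the difference 163 of 171. The GC correction left 5 of the 9 genes called with siMESH1-CDS. It turned LATS2 to 0.66, CYR61 to 0.09, AMOTL2 to 0.70, AXL to 0.80, WWC1 to 1.14, STK3 to -0.02, CCDC80 to -0.26 and SRF to 1.88 with siMESH1-CDS, and the difference to -0.11 for TEAD1, 0.57 for LATS2, 0.47 for AMOTL2 and 0.81 for AXL. Scaling by library size alone moved the median of all genes with siMESH1-CDS from -0.05 to -0.31 and the difference of CYR61 to -0.03. The siMESH1-7002 change of AMOTL2, near 0, was -0.01 with that scaling, with at least 10 counts in every library and with 1 model of all 4 groups, and -0.03 to 0.03 without each library. The model of all 4 groups called 2582 genes and 3 of the 9 with siMESH1-7002, and leaving out each library called 4 to 7 of the 9, the 4 without siMESH1-7002 replicate 2. The cause was not tested.

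Whether replicate numbers pair the libraries could not be settled with 3 libraries in each group. The correlations of deviations of same-numbered libraries were -0.0475, 0.224 and 0.128 in experiment 1 and -0.063, 0.0415 and -0.0755 in experiment 2, and not every library correlated best with its own number. A replicate block called 9273 genes with siMESH1-CDS, 6972 with siMESH1-7002 and 9385 for the difference, and 7 of the 9 genes in each, with CYR61 lost for siMESH1-CDS (edgeR adjusted p = 0.0519). Depth limits ANKRD1 and CTGF most in experiment 2, and small steps such as those of YAP1, TEAD1 and LATS2 with siMESH1-7002 are near the spread between libraries.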

Other observations

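Genes of the actin cytoskeleton that respond to SRF and its MRTF cofactors, which share several targets with YAP and TAZ, were counted as a list of 10. With siMESH1-CDS 1 was called higher and 7 lower (median log2 fold change -1.21, beside -0.05 over all genes), where 36.9% and 37.2% of all genes were called, and after the GC correction 3 higher and 4 lower (median -0.59, beside 0.13), where 38.8% and 27.3% were. The 8 calls became 5 without any of the siNT libraries or without siMESH1-CDS replicate 1, and 3 at an adjusted p threshold of 0.01. With siMESH1-7002 2 were called higher and 1 lower (median -0.04), beside 26.6% and 26.7% of all genes, and 5 were called without siNT replicate 3. FHL2, a LIM-domain cofactor, was called in opposite directions, from 167 ± 4.89 to 130 ± 8.26 CPM with siMESH1-CDS (log2 -0.36, edgeR adjusted p = 0.00912) and from 103 ± 2.02 to 174 ± 1.87 CPM with siMESH1-7002 (log2 0.76, adjusted p = 3.68e-10). SRF itself was lower with each siRNA (log2 -1.18, edgeR adjusted p = 0.0444, and -0.21, adjusted p = 0.00294), and its value with siMESH1-CDS turned to 1.88 after the GC correction and was not called without siMESH1-CDS replicate 1 or without any of the siNT libraries.

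Of 7 kidney and clear cell carcinoma genes, 6 were called lower and none higher with siMESH1-CDS, beside 37.2% and 36.9% of all genes, but 3 lower and 2 higher after the GC correction, beside 27.3% and 38.8%. With siMESH1-7002 3 were called lower and 1 higher, beside 26.7% and 26.6% of all genes, and 3 lower and 3 higher after the correction, beside 28.3% and 31.4%. On the TMM scale with siMESH1-CDS, NDUFA4L2 was at 2.26% of siNT, KRT18 at 3.57%, CA9 at 12.5%, KRT8 at 12.9%, PAX2 at 33.6% and PAX8 at 34.7%, of which PAX2 and PAX8 changed sign after the GC correction. VIM, at 3511 ± 93.7 CPM with siNT and 3486 ± 60.6 CPM with siMESH1-CDS (SD, n = 3), made up most of the sum of the list in experiment 1. The summed level was 3773 to 4012 CPM with siNT and 3544 to 3585 CPM with siMESH1-CDS, and 7628 to 8108 CPM with siNT and 7216 to 7412 CPM with siMESH1-7002. Of 9 markers of other cell types, 3 reached 1 CPM in every group, and their summed level was 78.6 to 93.9 and 30.2 to 34.9 CPM in experiment 1 and 146 to 147 and 195 to 206 CPM in experiment 2.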
